A study of Mus musculus with 6 samples.

Results

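The genes described here are 7 members of the transforming growth factor beta (TGF-beta) pathway, chosen by name from the 38293 gene identifiers in the files: the ligand gene Tgfb1, the receptor genes Tgfbr1 and Tgfbr2, the signal carrier Smad3, the inhibitors Smad7 and Skil, and the induced gene Tgfbi. All 7 were present. They were measured as UMI counts (counts of distinct captured RNA molecules) by droplet single-cell RNA sequencing of CD11b+ cells, CD11b being a surface protein of microglia, monocytes and other myeloid cells. The cells came from the spinal cords of 10 weeks old C57BL/6 mice, and each of the 3 groups had 2 libraries. EAE ROS+ libraries held cells from mice at the onset (score 1) of MOG35-55 experimental autoimmune encephalomyelitis (EAE), in which immunisation against a myelin peptide causes spinal cord inflammation and paralysis, sorted as positive for reactive oxygen species (ROS). EAE ROS- libraries held the cells of such mice that were negative for ROS, and Healthy ROS- libraries held ROS-negative cells of healthy mice. All live cells were stained with 10 µM DCFDA, a dye that fluoresces once oxidised, after warm collagenase digestion and myelin removal. The labels do not say whether libraries came from separate or pooled mice, so p-values measure only the spread between these libraries.

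TGF-beta 1 is secreted in a latent complex and must be released to act. It binds the type II receptor Tgfbr2, which recruits and activates the type I receptor Tgfbr1, and Tgfbr1 phosphorylates Smad2 and Smad3, which enter the nucleus with Smad4. Smad7 and Skil (SnoN) are induced by the pathway and restrain it. In the mouse central nervous system, TGF-beta signalling maintains the adult identity of microglia, the resident macrophages, whereas monocyte-derived cells enter from the blood in inflammation.

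Depth ranged over 915197 to 23407825 UMIs per library, from 202 to 2233 cells after filters, with median UMIs per cell of 5467 to 9543 in the EAE libraries and 2178 and 3618 in the Healthy ROS- libraries. The files held 9079 barcodes, of which 9078 passed filters, beside the 8701 cells that the study's design text states. Any pair of libraries shared 0 to 7 barcodes. Each cell was put in a class by its marker UMIs. The monocyte-derived class held 5535 cells and the microglia class 2694 cells, and 493 cells with enough marker UMIs that met no class rule were set aside as mixed. Monocyte-derived cells numbered 1568 and 2106 in EAE ROS+ libraries and 785 and 1076 in EAE ROS- libraries, and no cell of a healthy library fell in that class. Microglia numbered 23 and 7 in EAE ROS+ libraries 1 and 2, 495 and 225 in EAE ROS- libraries, and 1749 and 195 in Healthy ROS- libraries.

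Levels are given as CPM, the UMIs of a gene in every 1000000 UMIs summed over the cells of a class in a library. The 9 microglia markers summed to 85.5 to 271 CPM in monocyte-derived cells, 2945 to 3887 in EAE microglia, and 10258 and 10968 in healthy microglia, and all 9 were detected in each microglia sum of the EAE libraries. These lists defined the classes, so their sums describe the rule and check nothing. The 10 monocyte-derived markers summed to 5153 to 10779 CPM in monocyte-derived cells, 375 to 801 in EAE microglia, and 32.8 and 16.6 in healthy microglia. In Healthy ROS- replicate 2, Ccr2, Vcan, Itga4, S100a4, Ifitm6 and Chil3 (listed in the files as Chi3l3) were at 0. Among genes the rule did not use, the microglial gene Pros1 had 8.61 to 18.7 CPM in monocyte-derived cells and 125 to 226 in microglia, and Lyz2, a lysozyme gene of monocytes and macrophages, had 10463 to 16720 CPM in monocyte-derived cells, 1233 to 2791 in EAE microglia and 489 and 424 in healthy microglia. In Healthy ROS- replicate 2, 112 of 195 microglia (57.4%) carried a UMI of an endothelial marker, against 4 of 1749 (0.229%) in Healthy ROS- replicate 1.

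Monocyte-derived cells and microglia of the EAE libraries differed in 5 of the 7 genes. Monocyte-derived cells had more Tgfbi and Tgfb1 and less Tgfbr1, Tgfbr2 and Smad7. Over all 11060 genes tested in this comparison, 37.1% were called by edgeR's quasi-likelihood test at a Benjamini-Hochberg adjusted p under 0.05 (19.1% higher and 18.0% lower). The test compared the classes within each library, over the 3 EAE libraries with at least 10 cells of each class, which leaves out EAE ROS+ replicate 2. 

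The ligand gene Tgfb1 lies at chr7:25687002-25705077 on the plus strand (GRCm38, as are all positions here). It had 224 and 470.1 CPM in monocyte-derived cells of EAE ROS+ replicates 1 and 2 and 234 and 336 in those of EAE ROS- replicates 1 and 2, against 224 and 160.3 in the microglia of the same EAE ROS+ libraries and 229 and 186 in those of the EAE ROS- libraries. The classes had nearly the same level in replicate 1 of either gate, and monocyte-derived cells were above microglia in replicate 2 of either gate. The fitted log2 difference was 0.54 ± 0.18 (SE; adjusted p = 0.0297, edgeR), 1.46-fold. Without EAE ROS- replicate 2 it was 0.20 (adjusted p = 0.458), so the call rested on that library, and with DESeq2 the adjusted p was 0.0913.

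The receptor genes ran the other way. Tgfbr1 (chr4:47353222-47414931, plus strand) had 108 and 55.6 CPM in monocyte-derived cells of EAE ROS+ replicates 1 and 2 and 103 and 57.5 in those of EAE ROS- replicates 1 and 2, against 253 and 134 in microglia of EAE ROS+ libraries and 295 and 158 in microglia of EAE ROS- libraries. Replicate 1 was above replicate 2 in each class and gate, and microglia were above monocyte-derived cells within each of the 4 libraries. The 134 CPM of EAE ROS+ replicate 2 microglia came from 5 UMIs in 7 cells, with a Poisson 95% interval of 43.4 to 312. That interval holds both 55.6 and 253, so the place of this sum in either order is uncertain. The fitted log2 difference was -1.18 ± 0.15 (adjusted p = 1.06e-05, edgeR). Tgfbr2 (chr9:116084293-116175360, minus strand), the ligand-binding receptor, had 24.6 and 17.5 CPM in monocyte-derived cells of EAE ROS+ libraries and 32.8 and 21.1 in those of EAE ROS- libraries, against 77.1 and 134 in microglia of EAE ROS+ libraries and 122 and 102 in those of EAE ROS- libraries. The classes did not overlap in this gene, though the 134 CPM of EAE ROS+ replicate 2 microglia came from 5 UMIs in 7 cells. Its log2 difference was -1.75 ± 0.17 (adjusted p = 7.23e-07, edgeR), so that the level in monocyte-derived cells was 3.37-fold lower.

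Smad7, the inhibitor that binds the type I receptor and promotes its degradation (chr18:75367529-75395935, plus strand), had 24.4 and 23.7 CPM in monocyte-derived cells of EAE ROS+ libraries and 33.4 and 28.7 in those of EAE ROS- libraries, against 51.4 and 80.1 in microglia of EAE ROS+ libraries and 99.1 and 135 in those of EAE ROS- libraries. Every microglia sum was above every monocyte-derived sum. The 80.1 CPM of EAE ROS+ replicate 2 microglia came from 3 UMIs in 7 cells. Its Poisson 95% interval, 16.5 to 234, reached below the monocyte-derived values. The log2 difference was -1.51 ± 0.19 (adjusted p = 1.14e-05, edgeR). Skil, a Smad-binding repressor (chr3:31095058-31122577, plus strand), had 147 and 159 CPM in monocyte-derived cells of EAE ROS+ libraries and 161 and 128 in those of EAE ROS- libraries, against 151 and 294 in microglia of EAE ROS+ libraries and 148 and 149.8 in those of EAE ROS- libraries. These ranges overlapped, and no difference was called (log2 0.19 ± 0.14, adjusted p = 0.324). Smad3, a carrier of the signal (chr9:63646767-63757994, minus strand), was the gene with the fewest UMIs, 3, 0, 22 and 11 in the microglia of the EAE libraries in the same order, and a difference between the classes was not detectable at this depth (log2 -0.23 ± 0.36, adjusted p = 0.665).

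Tgfbi, which encodes a secreted matrix protein induced by TGF-beta (chr13:56609523-56639562, plus strand), separated the classes most widely among the 7. It had 1694 and 1991 CPM in monocyte-derived cells of EAE ROS+ libraries and 1589 and 1828 in those of EAE ROS- libraries, against 235 and 187 in microglia of EAE ROS+ libraries and 203 and 153 in those of EAE ROS- libraries. No values overlapped, and the log2 difference was 3.38 ± 0.18 (adjusted p = 1.74e-09, edgeR), 10.4-fold. After each cell was thinned to 1500 UMIs, 80.8% to 89.99% of monocyte-derived cells kept a Tgfbi UMI, against 14.2% to 26.1% of EAE microglia in the 3 libraries with at least 10 microglia (94.3% to 99.6% and 38.7% to 87.0% unthinned).

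**Figure D1:**
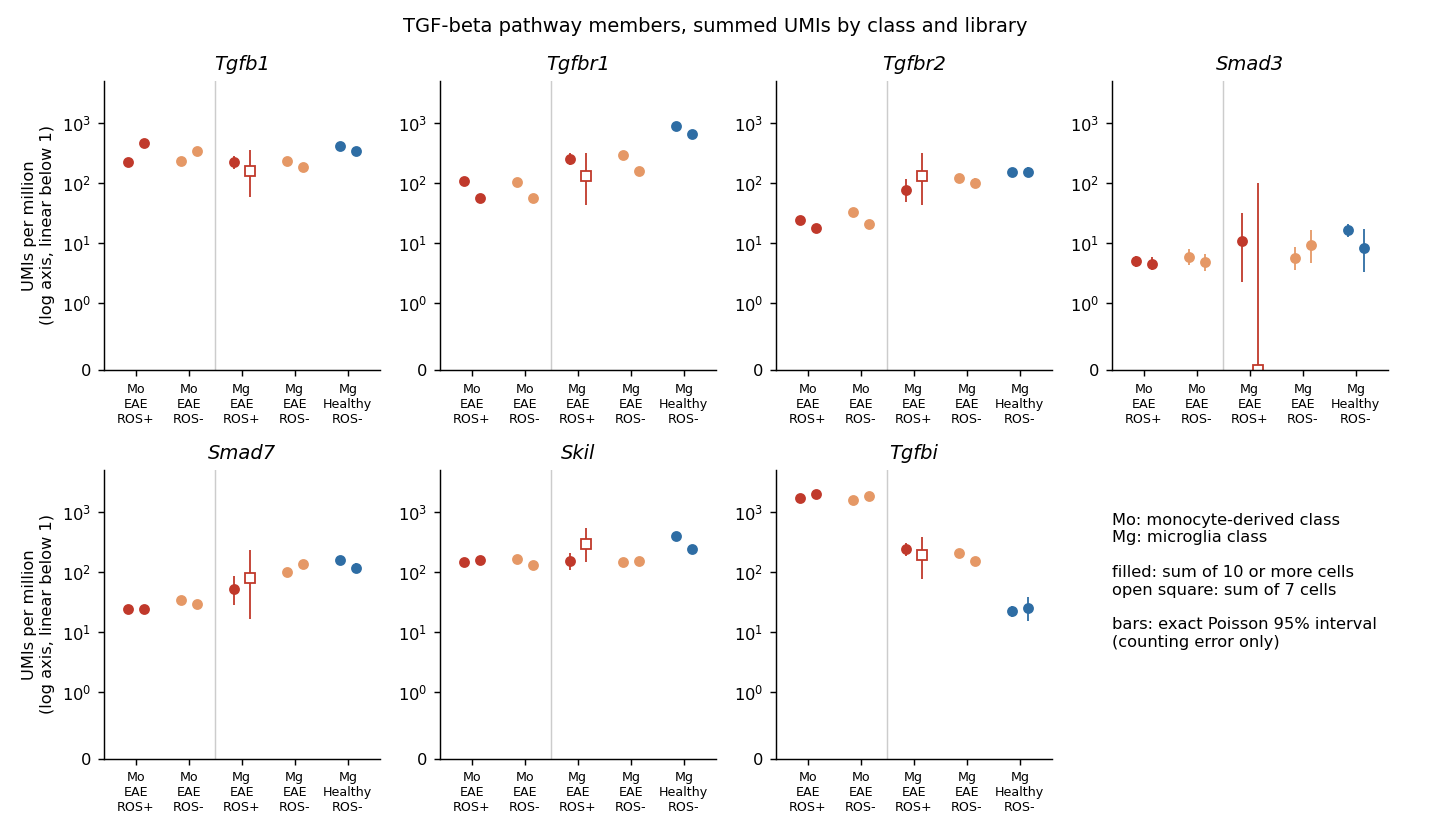
Level of each gene in CPM (UMIs per 1000000, log axis, linear below 1) in monocyte-derived cells (Mo) and microglia (Mg), with 1 point per library, replicate 1 left of replicate 2, and bars for the exact Poisson 95% interval, which covers counting error only. The open square is EAE ROS+ replicate 2, where microglia numbered 7. Tgfbi lies at 1589 to 1991 in monocyte-derived cells and at 22.2 and 24.9 in healthy microglia, whereas Tgfbr1 has its highest values, 887 and 653, in healthy microglia.

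The promoters of Tgfbi and Tgfbr1 are shown because these genes had the largest changes in opposite directions between EAE ROS- and Healthy ROS- microglia, described next. Each is 300 bases, from 250 before to 50 after the RefSeq start (GRCm38.p6, plus strand). Tgfbi spans chr13:56609336-56609635 and Tgfbr1 spans chr4:47352972-47353271. Capitals mark CAGAC, the core of the Smad-binding element, or its reverse complement GTCTG.
Tgfbi promoter: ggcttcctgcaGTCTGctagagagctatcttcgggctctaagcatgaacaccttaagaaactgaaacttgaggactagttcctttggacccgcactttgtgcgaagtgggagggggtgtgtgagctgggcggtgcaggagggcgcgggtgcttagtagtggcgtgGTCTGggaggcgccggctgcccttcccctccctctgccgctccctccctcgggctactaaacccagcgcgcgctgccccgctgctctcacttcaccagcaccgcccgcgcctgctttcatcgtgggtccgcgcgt
Tgfbr1 promoter: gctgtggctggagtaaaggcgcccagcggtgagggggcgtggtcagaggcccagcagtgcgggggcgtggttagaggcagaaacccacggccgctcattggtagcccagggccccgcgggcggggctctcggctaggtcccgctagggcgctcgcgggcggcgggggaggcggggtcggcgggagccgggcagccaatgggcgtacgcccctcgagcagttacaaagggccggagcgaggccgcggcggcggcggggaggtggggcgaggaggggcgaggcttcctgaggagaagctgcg
The Tgfbi window holds the motif at 2 positions, both as GTCTG, and the Tgfbr1 window holds none. A second RefSeq start of Tgfbr1 has 1 match, as has Tgfbr2, and Tgfb1 and Smad3 have none. CAGAC on either strand is in 13420 of 27018 such promoters (49.7%), so a match is common and is given as a description of these letters only. The palindrome GTCTAGAC, in 57 promoters (0.211%), is in none of those of the 5 genes with an entry.

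Within microglia, EAE ROS- cells had less Tgfbr1 and Skil than Healthy ROS- cells, and more Tgfbi. The Tgfbi CPM was below that of the class with T and NK cell markers in the same libraries. That class also admits cells with monocyte markers. Tgfbr1, Skil and Tgfbi, 3 of the 7 genes, were called (1 higher and 2 lower), in a comparison in which 27.4% of 9868 genes tested were called (15.6% higher and 11.8% lower). The 7 genes had a median log2 fold change of -0.61, beside -0.05 over all genes tested. Tgfbr1 had 295 and 158 CPM in EAE ROS- microglia, against 887 and 653 in Healthy ROS- microglia (226 ± 96.5 and 770.2 ± 166, mean ± SD, n = 2 each). Both EAE libraries lay below both healthy libraries. The log2 fold change was -1.51 ± 0.28 (adjusted p = 0.000264, edgeR), 2.84-fold lower, and it lay between -2.13 and -1.07 when each library was left out in turn, always called. In thinned cells, 37.4% and 19.1% of EAE ROS- microglia kept a Tgfbr1 UMI, against 71.4% and 63.8% of Healthy ROS- microglia (82.4% and 50.7% against 85.1% and 86.7% unthinned, at median depths of 6629 and 4672 UMIs against 2179 and 3609). Thinning left out 205 and 10 of the Healthy ROS- microglia as too shallow, and no others.

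Skil had 148 and 149.8 CPM in EAE ROS- microglia, against 395 and 237 in Healthy ROS- microglia. The EAE libraries were close together and below both healthy libraries, which lay far apart. The log2 fold change was -0.87 ± 0.25 (adjusted p = 0.0102, edgeR). The call was lost without EAE ROS- replicate 1 (adjusted p = 0.0538), without EAE ROS- replicate 2 (0.0923) and without Healthy ROS- replicate 1 (0.157).

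Tgfbi had 203 and 153 CPM in EAE ROS- microglia, against 22.2 and 24.9 in Healthy ROS- microglia. Each EAE library was above both healthy libraries, with a log2 fold change of 3.20 ± 0.28 (adjusted p = 5.32e-09, edgeR), 9.21-fold. T/NK cells of the same EAE ROS- libraries, lymphocytes taken here as cells that should lack Tgfbi, had 503 and 284 CPM, above the microglia of their own library. A single cell held 44 of the 216 Tgfbi UMIs of T/NK cells in replicate 1 and 16 of the 55 in replicate 2, and the T/NK rule, which asks for 25% of marker UMIs, admits cells that also carry monocyte markers. In thinned cells, a Tgfbi UMI was kept by 20.8% and 14.2% of EAE ROS- microglia and by 24.3% and 10.7% of T/NK cells (37 and 28 cells), with median depths of 6629 and 4672 UMIs in microglia and 6576 and 5453 in T/NK cells, and unthinned shares of 58.4% and 38.7% against 51.4% and 42.9%. The microglia share was below the T/NK share in replicate 1 and above it in replicate 2, and the Tgfbi level of EAE microglia is given here as a level only. Microglia had 12.8% and 8.38% of the monocyte-derived Tgfbi level in EAE ROS- replicates 1 and 2. For Lyz2 that percentage was 17.4 and 11.8, for Saa3 14.2 and 11.4, for F13a1 17.0 and 7.51, and for Arg1 13.2 and 4.72, monocyte and macrophage genes chosen after their values were seen. Thbs1, at 22.8 and 26.3, and Fn1, at 39.6 and 16.7, lay higher. All 10 monocyte-derived markers were detected in EAE ROS- microglia, where they summed to 375 and 578 CPM. They were all detected in microglia of Healthy ROS- replicate 1 too, at a sum of 32.8 CPM. Their part in the Tgfbi result was not tested.

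**Figure D2:**
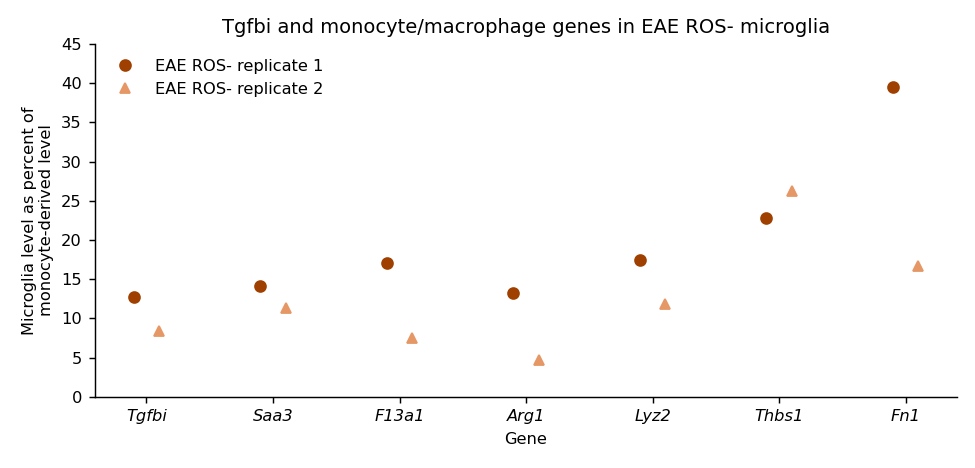
Level of Tgfbi and 6 monocyte or macrophage genes in EAE ROS- microglia as a percentage of the level in monocyte-derived cells of the same library, with 1 point per library. Tgfbi, at 12.8% in replicate 1, lies just below the 13.2% to 17.4% of Saa3, F13a1, Arg1 and Lyz2. At 8.38% in replicate 2, it lies within the 4.72% to 11.8% of those genes. Thbs1 and Fn1 lie higher in their own library.

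The other 4 genes were not called between EAE ROS- and Healthy ROS- microglia. Tgfb1 had 229 and 186 CPM in EAE ROS- microglia, against 407 and 337 in Healthy ROS- microglia. The EAE libraries lay below the healthy ones, with a log2 fold change of -0.61 ± 0.24 (adjusted p = 0.0605), and without Healthy ROS- replicate 2 it was called (-0.66, adjusted p = 0.0446). Tgfbr2 had 122 and 102 CPM in EAE ROS- microglia, against 154 and 156 in Healthy ROS- microglia, a log2 fold change of -0.22 ± 0.24 (adjusted p = 0.522). For Smad7 the values were 99.1 and 135 CPM in EAE ROS- microglia, against 154 and 116 in Healthy ROS- microglia, and the libraries overlapped (log2 -0.03 ± 0.24, adjusted p = 0.951). Smad3 stood at 5.69 and 9.21 CPM in EAE ROS- microglia, against 16.3 and 8.31 in Healthy ROS- microglia, which overlapped as well (log2 -0.71 ± 0.47, adjusted p = 0.28).

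Leaving out the microglia with an endothelial UMI, an alternative chosen after seeing the data, gave the same 3 calls, with log2 fold changes of -1.55 for Tgfbr1, -0.86 for Skil and 3.17 for Tgfbi. P2ry12, Tmem119, Sall1 and P2ry13, used to define microglia, themselves depend on TGF-beta in mice. Defining the class without them gave -1.5003, -0.94 and 2.94 for the same genes, all called. Whether the markers kept, Siglech, Gpr34, Olfml3, Slc2a5 and Fcrls, depend on TGF-beta was not examined. This alternative therefore cannot show a class free of such genes.

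**Figure D3:**
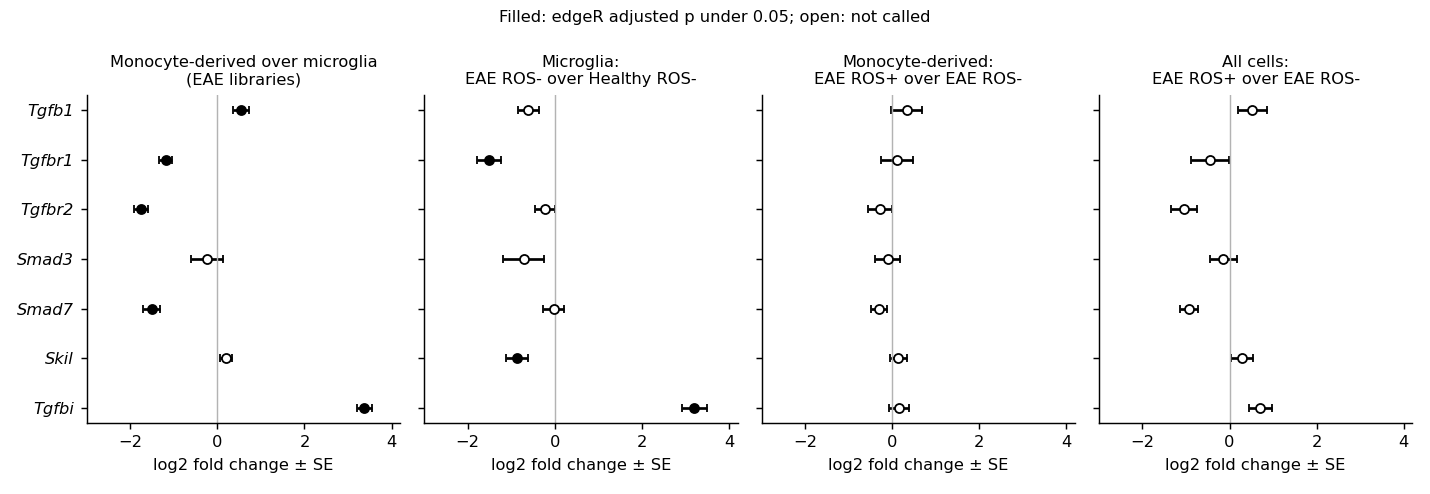
Log2 fold change of each gene with its SE in 4 comparisons, filled where edgeR's adjusted p was under 0.05 and open otherwise. Tgfbr1, Tgfbr2 and Smad7 lie to the left (lower) and Tgfbi to the right (higher) in monocyte-derived cells against microglia, and all 7 points are open in both panels of EAE ROS+ against EAE ROS-.

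Summed over all cells, 4 of the 7 genes were called between EAE ROS- and Healthy ROS- libraries, where 34.0% of 13631 genes tested were called (19.9% higher and 14.0% lower). Such sums hold different cells in the groups, and fewer cells of a type cannot be told apart in them from less RNA per cell. Tgfbr2 had 70.1 and 37.9 CPM in EAE ROS- libraries, against 154 and 153 in Healthy ROS- libraries. The EAE libraries lay far below the healthy ones, with a log2 fold change of -1.03 ± 0.30 (adjusted p = 0.0256, edgeR), beside -0.22 within microglia. Smad7 had 60.9 and 48.0 CPM in EAE ROS- libraries, against 154 and 117 in Healthy ROS- libraries. Its log2 fold change was -0.85 ± 0.22 (adjusted p = 0.0155, edgeR), beside -0.03 within microglia. Tgfbr1, at 188 and 73.7 against 886 and 647 CPM, fell by 2.08 on the log2 scale (SE 0.45; adjusted p = 0.00744, edgeR). Tgfbi, at 1002 and 1473 against 22.1 and 25.1 CPM, rose by 6.23 (SE 0.35; adjusted p = 9.71e-06, edgeR). The Tgfbr1 call was lost without Healthy ROS- replicate 1 (adjusted p = 0.0741), the Smad7 call without that library (0.119) or EAE ROS- replicate 2 (0.122), and the Tgfbr2 call without EAE ROS- replicate 2 (0.157), Healthy ROS- replicate 1 (0.119) or Healthy ROS- replicate 2 (0.0934). Tgfb1 (log2 fold change of -0.000727), Smad3 (-0.69) and Skil (-0.71) were not called, with adjusted p of 0.999, 0.145 and 0.0531. Skil was called without Healthy ROS- replicate 2 (adjusted p = 0.0225).

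The classes held the UMIs of each gene unevenly. In EAE ROS- replicates 1 and 2, monocyte-derived cells held 69.0% and 87.1% of the Tgfbi UMIs and microglia 4.97% and 1.04%. Of the Tgfbr2 UMIs, monocyte-derived cells held 20.4% and 39.0% and microglia 42.8% and 27.1%. Over all genes, monocyte-derived cells held 6853381 of 15754177 and 8347951 of 11905419 UMIs in these libraries, and microglia 3864295 and 1194561. In the EAE ROS+ libraries, where microglia were 23 of 1745 and 7 of 2233 cells, monocyte-derived cells held 82.6% to 96.1% of the UMIs of every one of the 7 genes. Over all genes they held 21248364 of 23407825 and 14480577 of 15450857 UMIs there. The range thus lies around the share of the class in all UMIs and describes the class size.

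**Figure D4:**
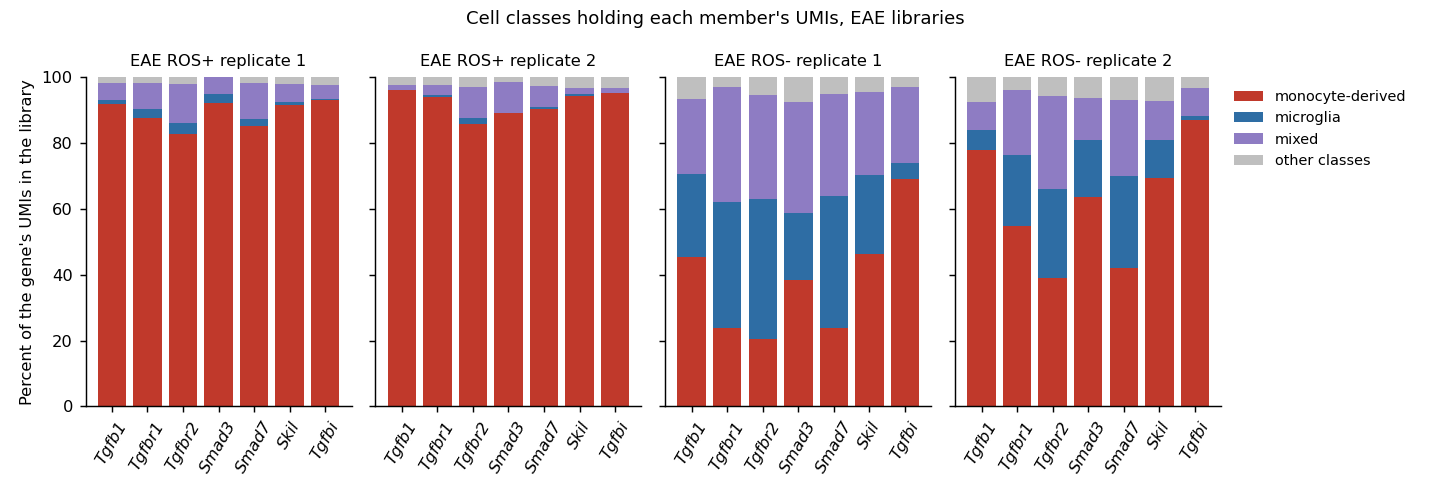
Percent of each gene's UMIs in an EAE library (vertical axis, 0 to 100) held by monocyte-derived, microglia, mixed and all other cells, 1 panel per library. Monocyte-derived cells hold at least 82.6% of every gene in EAE ROS+ libraries, and in EAE ROS- replicate 1 hold 20.4% of Tgfbr2 and 69.0% of Tgfbi. They are 89.9% and 94.3% of the cells in EAE ROS+ replicates 1 and 2 and 48.6% in EAE ROS- replicate 1.

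Between EAE ROS+ and EAE ROS- libraries, the contrast of the ROS gate, 0 of the 7 genes were called by edgeR over all cells. Of all genes tested, 2.16% were called (0.125% higher and 2.04% lower). In edgeR 3 of the 7 had an unadjusted p under 0.05, as had 1708 of all 13631 genes tested. DESeq2 called 1 of the 7, Smad7. Smad7 had 26.1 and 24.6 CPM in EAE ROS+ libraries, against 60.9 and 48.0 in EAE ROS- libraries. Tgfbr2 had 27.0 and 19.2 CPM in EAE ROS+ libraries, against 70.1 and 37.9 in EAE ROS- libraries. Tgfbi had 1652 and 1964 CPM in EAE ROS+ libraries, against 1002 and 1473 in EAE ROS- libraries. In each of these 3 genes both ROS+ libraries lay on the same side of both ROS- libraries, with log2 fold changes of -0.93 ± 0.21, -1.04 ± 0.29 and 0.71 ± 0.27, and adjusted p of 0.0637, 0.13 and 0.295. Smad3 did not overlap either, with 4.91 and 4.79 CPM in EAE ROS+ libraries, against 6.79 and 5.29 in EAE ROS- libraries. How many of all genes lay so was not counted, so this order of the libraries is a description only. Without EAE ROS- replicate 2, Smad7 (adjusted p = 0.0468) and Tgfbr2 (0.00975) were called, as they were with no filter on low counts (0.0118 and 0.00272). Microglia were 23 and 7 cells in the EAE ROS+ libraries and 495 and 225 in the EAE ROS- libraries, and the part of this difference in the result was not tested in the sums over all cells.

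Within monocyte-derived cells the gate gave smaller differences, with log2 fold changes of the 7 genes between -0.31 and 0.33. None was called by edgeR or DESeq2 or had an unadjusted p under 0.05, and edgeR called 0% of 11918 genes (598 at an unadjusted p under 0.05, and 52 called by DESeq2). Smad7 had 24.4 and 23.7 CPM in EAE ROS+ monocyte-derived cells, against 33.4 and 28.7 in EAE ROS- ones, without overlap, and a log2 fold change of -0.31 (adjusted p = 0.999). Tgfbi had 1694 and 1991 CPM in EAE ROS+ monocyte-derived cells, against 1589 and 1828 in EAE ROS- ones, which overlapped. Tgfb1 and Tgfbr1 differed more between replicates than between gates, Tgfb1 being higher and Tgfbr1 lower in replicate 2 of either gate.

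Within microglia the gate comparison had 1 EAE ROS+ library, of 23 cells, and edgeR called none of the 7 genes and 0.193% of genes tested, while DESeq2 called none of the 7 and Smad7 alone had an unadjusted p under 0.05. Smad7 had 51.4 CPM in that library, against 99.1 and 135 in EAE ROS- microglia (log2 -1.12 ± 0.43, adjusted p = 0.653). A fit of both classes, with 1 residual degree of freedom, took the gate difference in monocyte-derived cells minus that in microglia. It called none of the 7 genes by edgeR or DESeq2 and none at an unadjusted p under 0.05, with 0.579% of genes called by edgeR (0.0542% higher and 0.524% lower). Its largest estimate was 0.88 ± 0.46 for Smad7 (adjusted p = 0.728).

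The wider pathway was followed in 65 other genes, all present in the files. The counts of called genes below stand beside 19.1% higher and 18.0% lower over all genes between the classes, and 15.6% higher and 11.8% lower over all genes between EAE ROS- and Healthy ROS- microglia. Of the 18 genes of ligands and their activation, 7 had enough counts to be tested in each of these comparisons. In monocyte-derived cells against microglia of the EAE libraries, 4 were higher and 1 was lower. Inhba, a subunit of activin, was higher by 4.56 ± 0.29 on the log2 scale, Thbs1, a thrombospondin that can release latent TGF-beta, by 2.45 ± 0.22, the convertase Furin, which cleaves the TGF-beta precursor, by 2.28 ± 0.21, and the membrane protease Mmp14 by 1.34 ± 0.17. Itgav, the integrin chain that takes part in releasing the latent ligand, fell by 0.81 (SE 0.18; adjusted p = 0.00164). In EAE ROS- against Healthy ROS- microglia, 3 rose and none fell. The third, Inhba, is below the level at which genes were named, and its EAE ROS- microglia level was 7.78% and 3.24% of that in monocyte-derived cells. Inhba had 5.18 and 9.21 CPM in EAE ROS- microglia and 0 in both Healthy ROS- libraries. It thus passed the low count filter through EAE cells only, and its rise carries no weight in this count. Mmp14 had 69.1 and 56.1 CPM in EAE ROS- microglia, against 19.9 and 14.2 in Healthy ROS- microglia, with a log2 fold change of 2.05 ± 0.28 (adjusted p = 5.07e-06), and its EAE ROS- microglia level was 54.1% and 37.5% of that in monocyte-derived cells. Thbs1 had 12.2 and 17.6 CPM in EAE ROS- microglia, against 5.65 and 1.19 in Healthy ROS- microglia (log2 1.91 ± 0.51, adjusted p = 0.00708), and its EAE microglia level was 22.8% and 26.3% of that in monocyte-derived cells.

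Of the 10 genes of further receptors and co-receptors, 8 were tested between the classes, where 1 was higher and 3 were lower in monocyte-derived cells, and 7 were tested in microglia, where 2 fell in EAE ROS- cells and none rose, a share near the 27.4% over all genes. Eng, the co-receptor endoglin, was lower in both comparisons, with log2 fold changes of -1.06 ± 0.25 (adjusted p = 0.00285) between the classes and -1.21 ± 0.26 (adjusted p = 0.00109) in EAE ROS- microglia, where it had 23.8 and 33.5 CPM against 80.2 and 67.7 in Healthy ROS- microglia. Bambi, a decoy receptor without a kinase domain, was higher in monocyte-derived cells (1.22 ± 0.33, adjusted p = 0.00749). The activin receptor gene Acvr2b fell in EAE ROS- microglia, with 1.29 and 0.84 CPM against 21.0 and 7.12 in Healthy ROS- microglia (log2 -3.43 ± 0.67, adjusted p = 0.000409). Its EAE ROS- levels were below the 5.69 and 9.21 CPM of Smad3 there, and its healthy libraries lay far apart. The size of this fall is therefore limited by depth.

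Of the 17 further signal carriers and inhibitors, 4 were higher and 1 was lower among 16 tested between the classes, and 2 rose and 2 fell among 15 tested in microglia, shares near the 37.1% and 27.4% called over all genes. Dab2, an endocytic adaptor that binds TGF-beta receptors, was higher by 2.74 ± 0.24 in monocyte-derived cells and by 2.20 ± 0.40 in EAE ROS- microglia (adjusted p = 0.000178), and Tgif1, a Smad repressor, by 1.18 ± 0.18 and 1.02 ± 0.27 (adjusted p = 0.00591). The EAE ROS- microglia level was 20.2% and 10.1% of the monocyte-derived level for Dab2 and 62.5% and 40.0% for Tgif1, beside the monocyte-derived markers at 375 and 578 CPM in EAE ROS- microglia against 32.8 and 16.6 in Healthy ROS- microglia, whose part in these rises was not tested. Smad6, an inhibitor of bone morphogenetic protein signalling, was higher in monocyte-derived cells by 1.26 ± 0.38 (adjusted p = 0.0162), as was Fkbp1a, which binds the type I receptor, by 0.58 ± 0.15. Pmepa1, a TGF-beta-induced inhibitor, was lower in both comparisons, with log2 fold changes of -0.84 ± 0.15 (adjusted p = 0.000285) and -0.80 ± 0.24 (adjusted p = 0.016). Smad5, a carrier for bone morphogenetic proteins, fell in EAE ROS- microglia (-1.52 ± 0.41, adjusted p = 0.00771).

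Among 15 further transcriptional targets, 11 of the 12 tested were higher in monocyte-derived cells and none was lower, beside 19.1% higher over all genes. Among them were Bhlhe40 (log2 difference 3.13 ± 0.20), Id3 (3.12 ± 0.45) and Fn1 (2.01 ± 0.22), which encode a transcription factor, an inhibitor of such factors and fibronectin. This list, like the others, was chosen with earlier results of these data known, so the count is a description only. Whether TGF-beta signalling had a part in it was not tested. In EAE ROS- against Healthy ROS- microglia the list moved both ways, with 4 of 11 tested higher and 3 lower, beside 15.6% and 11.8% over all genes. Bhlhe40 rose by 4.64 ± 0.61 (adjusted p = 2.53e-06), Fn1 by 4.16 ± 0.58 (adjusted p = 6.64e-06), the transglutaminase gene Tgm2 by 1.94 ± 0.26 (adjusted p = 3.73e-06) and Id2 by 1.36 ± 0.25 (adjusted p = 0.000255). Bhlhe40 had 17.6 and 28.5 CPM in EAE ROS- microglia, against 0.678 and 2.37 in Healthy ROS- microglia. Its fold thus rests on very low healthy levels. Fn1 had 113 and 67.0 CPM in EAE ROS- microglia, against 1.36 and 22.6 in Healthy ROS- microglia, the higher healthy value being in the library with endothelial UMIs, and its EAE microglia level was 39.6% and 16.7% of that in monocyte-derived cells. For Bhlhe40 that percentage was 14.4 in EAE ROS- replicate 1, within the 13.2 to 17.4 of Saa3, F13a1, Arg1 and Lyz2 there. In EAE ROS- replicate 2 it was 13.2, above the 4.72 to 11.8 of those genes and below the 16.7 of Fn1 and 26.3 of Thbs1. The genes compared were chosen after their values were seen, so its place among them depends on that choice. For Tgm2 the percentage was 36.4 and 32.4, and for Id2 44.1 and 25.98. The immediate-early gene Junb had 742 and 755 CPM in EAE ROS- microglia, against 3517 and 2054 in Healthy ROS- microglia, and fell by 1.67 on the log2 scale (SE 0.26; adjusted p = 3.48e-05). Gadd45b, a stress response gene, fell by 1.21 (SE 0.34; adjusted p = 0.0102) and the chemokine gene Ccl9 by 1.00 (SE 0.26; adjusted p = 0.00575).

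Of 5 microglial genes that depend on TGF-beta in mice, all 5 were lower in monocyte-derived cells than in microglia, with log2 differences of -3.91 ± 0.27 for Gas6, -3.23 ± 0.17 for Pros1 and -2.71 ± 0.15 for C1qa. Within microglia, EAE ROS- cells differed from Healthy ROS- cells in 1 of the 5, Mertk, a receptor for engulfing dying cells, with 120 and 128 CPM in EAE ROS- microglia, against 255 and 224 in Healthy ROS- microglia (log2 -0.73 ± 0.23, adjusted p = 0.0189). This list leaves out P2ry12, Tmem119, Sall1 and P2ry13, which helped to define the class and were not tested within it. The 9 microglia markers, which include them, summed to 3032 and 3887 CPM in EAE ROS- microglia. In Healthy ROS- microglia they summed to 10258 and 10968 CPM. In sums over all cells 4 of the 5 were lower in EAE ROS- than in Healthy ROS- libraries, beside 14.0% lower over all genes. Between EAE ROS+ and EAE ROS- cells, none of the tested genes on these 5 lists was called by edgeR within microglia or within monocyte-derived cells. In monocyte-derived cells 6 of 54 tested genes had an unadjusted p under 0.05, as had 598 of all 11918 genes tested. Over all cells Thbs1 was higher in EAE ROS+ than in EAE ROS- libraries (log2 1.70 ± 0.29, adjusted p = 0.0177), and Gas6 (-2.99 ± 0.24) and Pros1 (-1.94 ± 0.30) were lower. Bmpr1a, a bone morphogenetic protein receptor gene of low level named after its value was seen, was lower as well (-3.01 ± 0.45, adjusted p = 0.0101).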

How the data were processed

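Libraries were made from CD11b+ spinal cord cells with the Chromium Single Cell 3' v2 kit, per the labels' protocols. For each library the authors' deposited matrix holds UMI counts by gene and barcode, not normalized. The submitters' processing notes name Cell Ranger 2.0.1, Seurat 3, R 3.4.2 and mm10, without a role for each. Barcodes needed 200 or more genes and no more than 10% mitochondrial UMIs. No doublet caller was run, and cells with 3 marker UMIs that met no class rule were set aside as mixed. A cell entered 1 of 5 minor classes with 3 UMIs and 25% of its marker UMIs in that list, and otherwise microglia or monocyte-derived cells with 3 UMIs and 70%. Counts were summed per library and class (at least 10 cells) and tested in R 4.3.3 with edgeR 4.0.16 (quasi-likelihood, TMM, filterByExpr with a minimum count of 10, Benjamini-Hochberg over all genes tested, threshold 0.05), without the class markers in class tests. SE is the log2 fold change divided by the root of F. The code was tested on simulated counts. CPM uses plain totals and fold changes are TMM-scaled. The 7 genes, the lists and the classes were chosen with earlier results of these data known. Called genes with an average log2 CPM of at least 3 were named, up to 4 per list, direction and comparison by size, and some of them are not reported here. The alternatives were RLE scaling, no low count filter, DESeq2 1.42.0, each library left out, a replicate block, other class rules and, chosen after seeing the data, a minimum of 5 cells and microglia without endothelial UMIs. By ID, 36345 genes matched the name table, and 3 listed genes were found under older symbols.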

Additional observations from a re-analysis of the deposited data

How the results depend on the processing

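The 12 calls on the 7 genes were recomputed 131 times in all under the alternatives: 120 stayed called in the same direction, 11 lost the call and none reversed. The calls lost were those of Skil in microglia, Tgfb1 between the classes and Tgfbr1, Tgfbr2 and Smad7 in all cells between EAE ROS- and Healthy ROS- libraries. For the 37 differences not called, 366 alternatives gave 14 new calls and 32 reversals. The causes were not tested.

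For EAE ROS+ against EAE ROS- over all cells, the count of the 7 genes called was 0, and it was 2 without the low count filter, 1 with DESeq2, 2 with the replicate block, 3 with the block in EAE libraries only, and 0 to 2 with a library left out. Of all genes, 295 were called, 1006 without the filter, 596 with the block, 1839 with the block in EAE libraries only, and 123 to 632 with a library left out. Between EAE ROS- and Healthy ROS- libraries the count of the 7 was 4 and ran from 1 to 4 with a library left out, and of all genes 4629, from 2364 to 4295. The gate within microglia gave 19 genes, 43 without the filter, 2 with DESeq2, 51 with the block and 23 to 79 with a library left out. EAE ROS- against Healthy ROS- microglia gave 2704 genes, 1186 with DESeq2 and 1680 to 3134 with a library left out. The gate within monocyte-derived cells gave 0 genes, 205 without the filter, 52 with DESeq2, 49 with the block and 7 to 105 with a library left out. Monocyte-derived cells against microglia gave 4107 genes, 2559 to 4460 with a library left out. The difference of the gate between classes gave 64 genes, 42 with RLE scaling, 40 without the filter, 6 with DESeq2, 13 with fewer microglia markers and 32 with at least 5 cells.

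Reversed values, as log2 fold changes of genes not called, were as follows. Tgfb1 in EAE ROS- against Healthy ROS- libraries was 0.00806 with RLE, 0.0724 without the filter, 0.00912 with DESeq2, and -0.26 to 0.26 with a library left out. For the gate over all cells, leaving out a library gave -0.0658 to 0.95 for Tgfb1, -1.07 to 0.34 for Tgfbr1 and -0.27 to 0.0219 for Smad3. For the gate in microglia, Skil was -0.0179 without the filter, -0.12 with the block, -0.69 with fewer microglia markers and -0.0970 to 0.12 with a library left out. Tgfbr1 was -0.0797 with the block, -0.18 with at least 5 cells and -0.34 to 0.80 with a library left out, and Tgfb1 was -0.13 with at least 5 cells and -0.16 to 0.39 with a library left out. Smad7 in EAE ROS- against Healthy ROS- microglia was 0.0620 under the stricter class rule and -0.15 to 0.14 with a library left out. In monocyte-derived cells the ranges with a library left out were -0.26 to 0.75 for Tgfb1, -0.48 to 0.57 for Tgfbr1, -0.58 to 0.0559 for Tgfbr2, -0.25 to 0.0465 for Smad3 and -0.00123 to 0.30 for Skil. For the difference of the gate between classes, Skil was -0.00391 with RLE, -0.00115 with DESeq2 and -0.0995 with at least 5 cells, and Tgfb1 was 0.17 with at least 5 cells.

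Samples with the same replicate number deviated together between the EAE gates (correlation over genes of the replicate differences 0.609 over all cells and 0.552 in monocyte-derived cells) but not with the healthy libraries (-0.134 and -0.0182 over all cells), and no label pairs them. With the block, Smad7 (-0.92, adjusted p = 0.0236) and Tgfbr2 (-1.02, adjusted p = 0.0351) were called in all cells for the gate. Where a library left out leaves 1 in its group, that library is assumed to vary like the others. The class-by-gate fit could not be run with a library left out or under the stricter class rule, nor could the gate within microglia be fitted without EAE ROS+ replicate 1, under the stricter rule, or with the block in EAE libraries only. Microglia of EAE ROS+ libraries, 23 and 7 cells, and Smad3, with few UMIs, are limited by depth.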

Other observations

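Cells outside the main classes carried these genes too, given for sums of at least 10 cells with no test. Tgfbi was highest in the neutrophil marker class, at 1671 and 1962 CPM in EAE ROS+ replicates 1 and 2 (52 and 72 cells) and 1689 and 1390 in EAE ROS- replicates (11 and 27 cells), values within or near those of monocyte-derived cells. The rule for this class asks for 25% of marker UMIs and admits cells that also carry monocyte markers. The mixed class had 1289 and 1206 CPM in EAE ROS+ libraries (99 and 44 cells) and 866 and 988 in EAE ROS- libraries (245 and 105 cells). Cells of the dendritic marker class, in EAE ROS- libraries only (39 and 67 cells), had 317 and 538 CPM. Smad3 was at 0 UMIs in the neutrophil class of EAE ROS+ replicate 1 and EAE ROS- replicate 1. In the EAE ROS- libraries, Tgfb1 had 248 and 305 CPM in dendritic-marker cells and 338 and 470.0 in T/NK cells. Smad7 had 45.3 and 43.9 CPM in dendritic-marker cells and 76.8 and 87.8 in T/NK cells. Tgfbr1 had 66.3 and 46.2 CPM in dendritic-marker cells and 246 and 115 in mixed cells.

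Over the 9 sums of microglia and monocyte-derived cells by library, the genes with the pattern most like each gene were sought among 3493 genes by Pearson's r of log2(CPM + 1). The nearest were Fndc3a for Tgfb1 (r = 0.92), Rbm26 for Tgfbr1 (0.98), Daglb for Tgfbr2 (0.995), Cbx3 for Smad3 (0.97), Srsf10 for Smad7 (0.99), Rlim for Skil (0.98) and Iqgap1 for Tgfbi (0.997). The sums share libraries and classes, so these values describe the pattern only.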
